A study of Mus musculus with 16 samples.

Results

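Endothelins are short vasoactive peptides, and their 3 ligand genes (Edn1, Edn2, Edn3), 2 receptor genes (Ednra, Ednrb) and the gene of the endothelin-converting enzyme (Ece1) were examined in 2 tissues of young mice, ascending aorta and aortic valve. Members were chosen by symbol, as the probe sets to which the platform annotation assigns exactly 1 gene and that gene is 1 of the 6. This gave 12 of the 45101 probe sets on the array, namely 1 for Edn1, 1 for Edn2, 4 for Edn3, 3 for Ednrb and 3 for Ece1. Ednra had no probe set that met the rule and was not analysed here, so 5 of the 6 genes are described, among 18193 genes with a probe set.

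Tissue came from mice aged 30 days with either both copies of the elastin gene (Eln+/+) or only 1 functional copy (Eln+/-). Each tissue was sampled in both genotypes, with 4 arrays for each of the 4 combinations. The valve specimens held cusp, annulus and root together, and the aorta specimens were ascending aorta. Each array carried amplified RNA of 1 unpooled specimen, and the labels name no drug treatment and do not say which aorta and valve share an animal, so p-values here measure the spread between specimens.

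Endothelin peptides are made as long precursors that furin-type proteases trim to big endothelin, which Ece1 then cuts to the active form. Ednra on smooth muscle raises calcium and drives contraction, while Ednrb on endothelium triggers nitric oxide and prostacyclin release and clears the peptide. In the embryo, Edn1 with Ednra patterns neural crest of the pharyngeal arches and outflow tract, and Edn3 with Ednrb guides the neural crest that forms melanocytes and enteric neurons.

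The 250 bases before the annotated start are printed for the genes on which the comparisons turn: Edn1, whose valve values were lower without passing the test, and Ednrb and Ece1, whose valve values were higher. They are RefSeq sequence of build GRCm38.p6, written 5′ to 3′ on the gene's own strand. Capitals mark the letters of a CCAAT box (CCAAT) or a GC box (GGGCGG), read on either strand, so that ATTGG and CCGCCC are the same boxes on the opposite strand. Of 7 motifs sought on both strands in these stretches, CCAAT was found in 33.8% of all 32851 promoter stretches of this length and GGGCGG in 32.7%.
Edn1, chr13:42301226-42301475, plus strand: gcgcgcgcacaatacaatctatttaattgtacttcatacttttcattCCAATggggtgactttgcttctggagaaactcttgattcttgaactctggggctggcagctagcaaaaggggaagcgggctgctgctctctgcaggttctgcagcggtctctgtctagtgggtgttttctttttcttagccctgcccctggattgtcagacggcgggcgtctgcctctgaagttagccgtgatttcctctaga
Ednrb, chr14:103843702-103843951, minus strand: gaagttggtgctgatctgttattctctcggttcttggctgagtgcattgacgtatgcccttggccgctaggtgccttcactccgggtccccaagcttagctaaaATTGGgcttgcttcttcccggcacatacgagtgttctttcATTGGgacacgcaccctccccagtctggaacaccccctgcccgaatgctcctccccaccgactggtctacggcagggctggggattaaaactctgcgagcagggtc
Ece1, first start, chr4:137861987-137862236, plus strand: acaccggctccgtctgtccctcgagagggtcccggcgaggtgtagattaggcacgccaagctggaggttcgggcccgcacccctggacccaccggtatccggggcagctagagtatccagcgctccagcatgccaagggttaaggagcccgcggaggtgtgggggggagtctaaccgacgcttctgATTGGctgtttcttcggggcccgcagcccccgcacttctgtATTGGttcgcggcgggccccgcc
Ece1, most downstream start, chr4:137920543-137920792, plus strand: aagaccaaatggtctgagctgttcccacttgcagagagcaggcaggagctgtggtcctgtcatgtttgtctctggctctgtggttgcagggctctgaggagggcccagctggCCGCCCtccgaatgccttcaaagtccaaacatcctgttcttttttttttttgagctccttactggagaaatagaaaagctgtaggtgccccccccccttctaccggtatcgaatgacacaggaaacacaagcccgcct

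The Edn1 stretch held 1 CCAAT box, 203 bases before the start. The Ednrb stretch held 2, at 146 and 106 bases, both on the opposite strand. Ece1 has 4 annotated starts, and which start gives which isoform was not examined. The stretch of the first start held CCAAT boxes at 64 and 23 bases, and that of the most downstream start held a GC box at 138 bases and no CCAAT box. The second start lies so close that its stretch overlaps the first. The stretch of the third start held the hypoxia response core ACGTG, present in 16.6% of all stretches, on both strands, as the overlapping parts of 1 CACGTG, which is also an E-box of the form CANNTG (66.2%). The other motifs were TATAAA (12.4%), AGATAA, the GATA factor motif (9.99%), and TGAGTCA, the AP-1 motif (4.46%), and none of these was found in any of the stretches of the 6 genes. A match here describes letters and was not tied to any measurement.

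All values are on the log2 scale. For the 12 members they are relative to the median of the same probe set over the 16 arrays, so 0 is the median array and 1 is a doubling. Of all 45101 probe sets, 5274 had a deposited median below 1, so for those 0 is not the median array. The values hold no signal level, and levels of different genes are not compared. Differences come from a limma fit over 45037 probe sets, with Benjamini-Hochberg adjusted p under 0.05 as the threshold, and ± after a difference is its SE.

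In the series as a whole, array medians were close together (ratios of 0.957 to 1.01). Eln, the gene that the groups differ in, had a log2 difference between Eln+/- and Eln+/+ of -0.42 ± 0.34 in aorta and -1.27 ± 0.34 in valve (limma adjusted p = 0.900 and 0.395). For both, the exact two-sided permutation p was 0.0571, where the smallest possible is 0.0286. These are values of its more variable probe set. The other Eln probe set gave -0.22 ± 0.22 in aorta and -0.61 ± 0.22 in valve (limma adjusted p = 0.920 and 0.454, exact permutation p = 0.0286 and 0.143). Xist, expressed from the inactive X chromosome, was high on 8 of 8 Eln+/- arrays and 2 of 8 Eln+/+ arrays, so sex and genotype cannot be fully told apart. Aorta Eln+/- arrays 2 and 4 carried thymocyte and T cell genes (a list mean of 1.29 and 0.61, against -0.40 to -0.10 on the other 14). Rag1, a thymocyte marker, read 5.06 and 3.15 on them, against -0.54 to 0.68 on the other 14. Aorta Eln+/- array 2 also had the highest macrophage list mean, 0.97. Heart muscle list means over the aorta arrays ran from -3.50 to -0.88 and were highest on Eln+/- array 3 and Eln+/+ array 2. Adipocyte list means over the aorta arrays ran from -0.56 to 2.94. They were highest on Eln+/+ array 4 (2.94), Eln+/- array 2 (2.23) and Eln+/+ array 1 (1.71).

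No endothelin gene differed between genotypes at the threshold. In aorta 0 of the 12 probe sets passed, beside 0% of all probe sets, and in valve 0 of 12 passed, again beside 0%. At an unadjusted p under 0.05 there were 0 members and 2480 probe sets in aorta, and 1 member and 3873 probe sets in valve. The median member difference was 0.01 in aorta and -0.04 in valve, beside -0.02 and 0.01 over all probe sets.

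Between tissues, Ece1 and Ednrb had higher values in valve and Edn1 had lower values there. Over both genotypes, 2 of the 3 Ece1 probe sets and 1 of the 3 Ednrb probe sets passed the test. Their most variable probe sets, the kind that stand for genes in the lists below, did not pass (Ece1 1441423_at, adjusted p = 0.0613, and Ednrb 1437347_at, adjusted p = 0.0567). By that rule no member gene was called in any comparison. In Eln+/+, 2 of 12 members were called, both of Ece1 and both higher in valve, where 0.946% of all probe sets were called and 0.848% were called higher. In Eln+/-, 0 of 12 were called, where 5.81% of all were called and 3.27% higher, and 3 members and 8570 probe sets had an unadjusted p under 0.05. Over both genotypes, 3 of 12 were called, all higher in valve, where 8.04% of all were called and 4.4% higher. The 3 tissue comparisons share arrays and are given side by side, not as separate evidence. The median difference of the 12 member probe sets was 0.33, 0.29 and 0.34, beside -0.05, -0.02 and -0.04 over all probe sets. Ednrb and Ece1 have 3 probe sets each among the 12, so this median does not show a shift of the family. By most variable probe set, differences over both genotypes were -0.43 (Edn1), -0.09 (Edn2), -0.17 (Edn3), 1.19 (Ednrb) and 0.58 (Ece1).

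**Figure D1:**
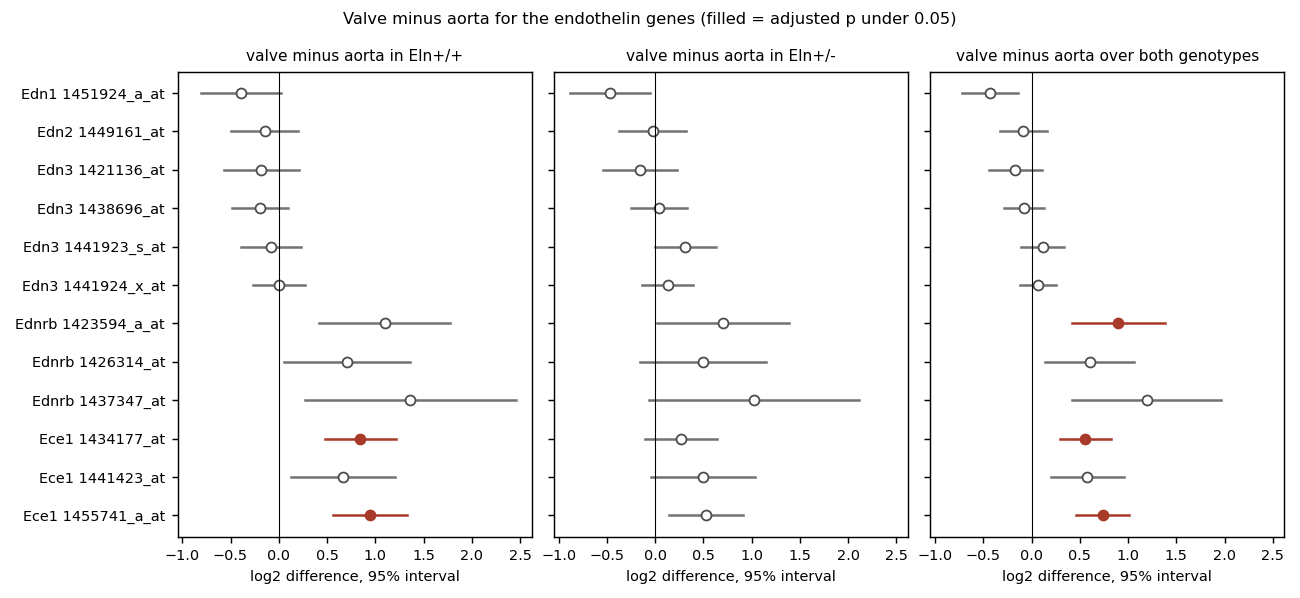
Differences between valve and aorta (log2, x axis) for each of the 12 probe sets of endothelin genes (y axis), in Eln+/+, in Eln+/- and over both genotypes; points are limma estimates, lines their 95% intervals, and filled red points passed an adjusted p of 0.05. The Edn2 and Edn3 estimates lie near 0, the Edn1 estimate over both genotypes is -0.43, and those of Ednrb and Ece1 lie to the right, between 0.56 and 1.19 over both genotypes.

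Edn1 encodes endothelin-1, the main vascular ligand, made mostly by endothelium. In aorta Eln+/+ the 4 arrays read 0.07, -0.25, 0.14 and 0.33, and in aorta Eln+/- they read 0.13, 0.72, 0.05 and 0.04. In valve Eln+/+ they read -0.28, -0.15, -0.50 and -0.34, and in valve Eln+/- 0.11, -0.29, -0.69 and -0.04. Of the aorta arrays 7 of 8 lay above 0 and of the valve arrays 7 of 8 lay below it, and 5 valve arrays were below every aorta array, yet the tissues overlapped in both genotypes.

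The valve minus aorta difference of Edn1 was -0.43 ± 0.14 over both genotypes, a ratio of 0.743 with a 95% interval of -0.72 to -0.14 on the log2 scale. It did not pass in the limma fit (adjusted p = 0.0713). In Eln+/+ the difference was -0.39 ± 0.19 (adjusted p = 0.454) and in Eln+/- it was -0.47 ± 0.19 (adjusted p = 0.195). Leaving out any 1 array kept the sign, with values from -0.48 to -0.35 over both genotypes, and no such fit passed. The genotype difference was 0.16 ± 0.19 in aorta, where array 2 of Eln+/- stood far above its group. Without that array it was 0.0031.

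Edn2, a ligand best known from intestine and ovary, had a narrow spread. Aorta Eln+/+ arrays read 0.04, 0.13, 0.19 and 0.04, and aorta Eln+/- arrays -0.05, -0.16, -0.29 and 0.08. Valve Eln+/+ arrays read -0.46, 0.29, 0.02 and -0.02, and valve Eln+/- arrays 0.23, -0.12, -0.32 and -0.31. The 2 valve groups covered the whole range of the aorta groups. Its SD over the 16 arrays, 0.217, was at the 23.2 percentile of all probe sets, and its 6 differences had adjusted p of at least 0.756.

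Edn3 encodes endothelin-3, the ligand of Ednrb in neural crest. Its 4 probe sets were also quiet, with SDs at the 3.56 to 31.0 percentiles of all probe sets. On the most variable of them, 1421136_at, aorta arrays ran from -0.26 to 0.46 and valve arrays from -0.36 to 0.22. Over both genotypes the 4 valve minus aorta differences lay between -0.17 and 0.12, with 95% intervals from -0.44 to 0.34 and adjusted p from 0.523 to 0.756. The mean of the 4 gave -0.02 ± 0.07. All 4 intervals exclude a difference as large as the Ednrb estimates of 0.60 to 1.19. Whether the Edn2 and Edn3 probe sets carried signal at all cannot be read from ratios.

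The Edn3 probe set with the largest estimates was 1441923_s_at, whose suffix marks probes that can match more than 1 transcript. Its valve Eln+/- arrays read -0.04, 0.35, 0.34 and 0.10, and its valve Eln+/+ arrays -0.17, 0.06, -0.22 and -0.02. The groups overlapped, and the genotype difference of 0.28 ± 0.15 did not pass (adjusted p = 0.624). The valve minus aorta difference in Eln+/- was 0.31 ± 0.15 on this probe set (adjusted p = 0.263) and -0.16 to 0.13 on the other 3. The interaction on this probe set, 0.39 ± 0.21, was the largest Edn3 estimate and did not pass (adjusted p = 0.672).

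Ednrb encodes the B-type receptor, carried by endothelium, melanocytes and glia among other cells. On 1423594_a_at, aorta Eln+/+ arrays read -0.61, -1.35, -0.71 and 0.14, and aorta Eln+/- arrays -0.94, -0.04, -0.48 and 0.04. Valve Eln+/+ arrays read 1.16, 0.57, -0.07 and 0.18, and valve Eln+/- arrays 0.73, -0.10, 0.25 and 0.51. Of the 8 valve arrays 6 were above every aorta array, and aorta Eln+/+ array 4 and aorta Eln+/- arrays 2 and 4 reached into the valve range.

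Ednrb was 1.86-fold higher in valve than in aorta on this probe set over both genotypes (0.90 ± 0.23, 95% interval 0.42 to 1.38, adjusted p = 0.0223). It was 1.10 ± 0.32 in Eln+/+ (adjusted p = 0.155) and 0.70 ± 0.32 in Eln+/- (adjusted p = 0.247), neither of which passed alone. The call rested on single arrays: without aorta Eln+/- array 1 or valve Eln+/- array 1 the adjusted p was 0.0502 and 0.0503, and it stayed past the threshold in the other 14 such fits.

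The other Ednrb probe sets pointed the same way and did not pass. On 1437347_at, aorta Eln+/+ arrays read -0.57, -1.17, -2.77 and -0.13, and aorta Eln+/- arrays -1.25, 0.93, -0.47 and -1.25. Valve Eln+/+ arrays read 0.22, -0.30, 0.69 and 0.20, and valve Eln+/- arrays 0.90, 0.48, 0.12 and 0.56. Aorta was widely spread and valve was not: the aorta SDs were 1.15 and 1.03 and the valve SDs 0.41 and 0.32.

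The difference on 1437347_at over both genotypes was 1.19 ± 0.36, or 2.29-fold, with an adjusted p of 0.0567. Without aorta Eln+/- array 2, the only high aorta array, it was 1.43 and passed (adjusted p = 0.00906), and it also passed without aorta Eln+/+ array 4 (1.36, adjusted p = 0.0291). On 1426314_at it was 0.60 ± 0.22 (adjusted p = 0.110). The mean of the 3 Ednrb probe sets gave 0.90 ± 0.22 (adjusted p = 0.0177). The probe sets differed from each other by 0.54 to 0.78 (root mean square over 16 arrays), about as much as the tissues differed, so each is given separately. Genotype differences ran from -0.27 to 0.65 with adjusted p of at least 0.851.

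Ece1 encodes the membrane metalloprotease that makes active endothelin. On 1455741_a_at, aorta Eln+/+ arrays read -0.47, -0.36, -0.55 and -0.34, and aorta Eln+/- arrays -0.33, 0.05, -0.18 and -0.58. Valve Eln+/+ arrays read 0.57, 0.22, 0.58 and 0.69, and valve Eln+/- arrays 0.76, 0.03, -0.03 and 0.32. In Eln+/+ every valve array lay above every aorta array. In Eln+/- valve arrays 2 and 3 lay below aorta array 2.

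On this probe set Ece1 was 1.93-fold higher in valve in Eln+/+ (0.95 ± 0.18, adjusted p = 0.0187). The difference in Eln+/- was 0.53 ± 0.18 and did not pass (adjusted p = 0.106). Over both genotypes Ece1 was 1.67-fold higher in valve (0.74 ± 0.13, adjusted p = 0.00199), the smallest adjusted p of any member in any comparison.

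On 1434177_at, aorta Eln+/+ arrays read -0.34, -0.23, -0.03 and -0.24, and aorta Eln+/- arrays 0.03, -0.18, -0.08 and -0.07. Valve Eln+/+ arrays read 0.73, 0.43, 0.63 and 0.75, and valve Eln+/- arrays 0.73, -0.31, 0.14 and 0.22. Again the Eln+/+ groups were apart, and valve Eln+/- array 2 was the only valve array within the aorta range. Ece1 was 1.80-fold higher in valve in Eln+/+ here (0.85 ± 0.17, adjusted p = 0.0285). In Eln+/- the difference was 0.27 ± 0.17 (adjusted p = 0.450), and over both it was 0.56 ± 0.12, or 1.47-fold (adjusted p = 0.0103).

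The third Ece1 probe set, 1441423_at, gave 0.58 ± 0.18 over both genotypes and did not pass (adjusted p = 0.0613). Its aorta arrays ran from -1.02 to 0.06 and its valve arrays from -0.42 to 0.67. The mean of the 3 probe sets gave 0.82 ± 0.18 in Eln+/+ (adjusted p = 0.0373) and 0.62 ± 0.12 over both (adjusted p = 0.00512). The labels and annotation used here do not tie a probe set to an Ece1 isoform.

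The Ece1 calls over both genotypes held in all 16 fits that left out 1 array, with adjusted p up to 0.0251 on 1434177_at and up to 0.00574 on 1455741_a_at. The Eln+/+ calls did not. On 1434177_at the call ended without any of the 4 aorta Eln+/+ arrays or without valve Eln+/+ array 1, 3 or 4, with adjusted p of 0.0509 to 0.104 and differences of 0.80 to 0.91. On 1455741_a_at it ended without aorta Eln+/+ array 1 or 3 or valve Eln+/+ array 1, 3 or 4 (0.0508 to 0.0751, differences of 0.89 to 0.93).

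The Ece1 estimates were smaller in Eln+/- than in Eln+/+, and the test of that difference did not pass. The interaction was -0.58 ± 0.25 on 1434177_at (adjusted p = 0.635) and -0.42 on 1455741_a_at (adjusted p = 0.702). On 1441423_at, the most variable Ece1 probe set, it was only -0.17 ± 0.36 (adjusted p = 0.927). For all 12 members 0 interactions were called, beside 0% of all probe sets, with 1 member and 3477 probe sets at an unadjusted p under 0.05. Within valve, Eln+/- minus Eln+/+ was -0.44 ± 0.17 on 1434177_at, the only genotype difference of a member with an unadjusted p under 0.05 (adjusted p = 0.498). Without valve Eln+/- array 2 it was -0.27. With the Xist minus Y-linked signal as a covariate it was -0.34 (adjusted p = 0.845).

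Marker estimates between the valve genotypes also differed in direction from list to list, with 0 genes called in any of the lists, beside 0% of all probe sets. All 19 heart muscle genes had higher estimates in Eln+/- (median 0.83), and the list means ran from 0.50 to 1.46 on Eln+/+ valve arrays and from 1.47 to 2.26 on Eln+/- valve arrays. Of 15 smooth muscle genes 14 had lower estimates (median -0.76), with overlapping list means of -0.57 to 0.24 and -1.70 to -0.41. Of 11 fibroblast genes 10 had lower estimates (median -0.33), beside a median of 0.03 over all genes. Endothelial genes had higher estimates in 14 of 18 (median 0.21), and melanocyte and Schwann and neural genes in 8 of 10 each (medians 0.15 and 0.15). Medians were 0.05 for macrophages, 0.07 for thymocytes and T cells, -0.21 for adipocytes and -0.13 for airway epithelium. The Ece1 difference on 1434177_at was also fitted on the valve arrays alone with a list mean as a covariate. It was -0.75 with the heart muscle mean and -0.64 with the smooth muscle mean (adjusted p = 0.933 and 0.969). The heart muscle means did not overlap between the valve genotypes, so genotype and that mean cannot be told apart.

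**Figure D2:**
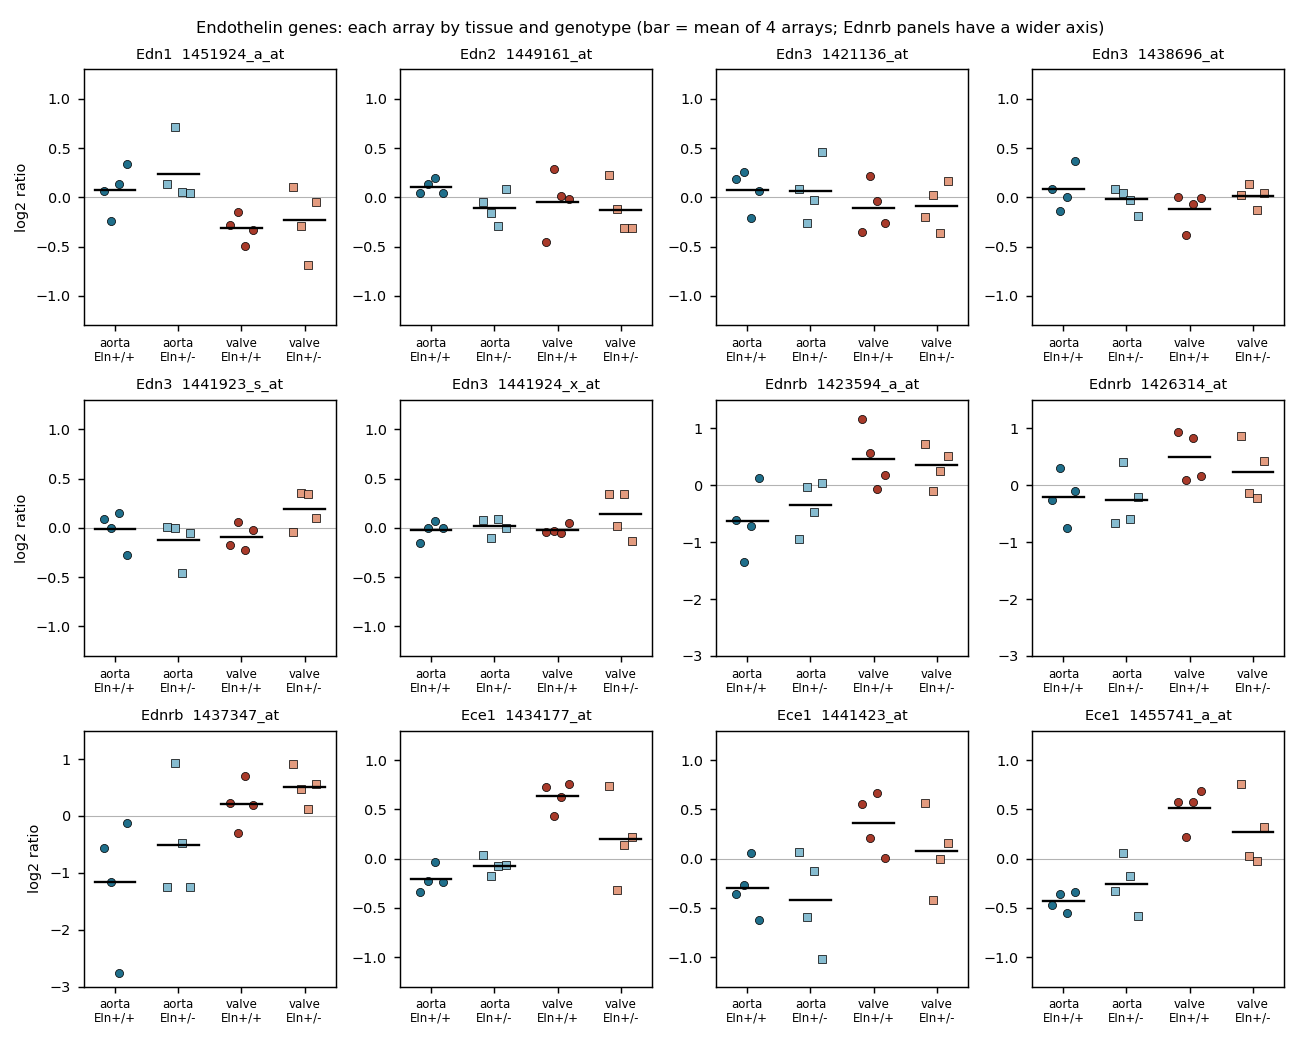
Log2 ratio (y axis) on each of the 16 arrays for the 12 probe sets of endothelin genes, by tissue and genotype (x axis); points are arrays and bars the means of 4. Edn1 reaches 0.72 on 1 aorta Eln+/- array, the Edn2 and Edn3 panels stay within about the same band in all groups, Ednrb 1437347_at drops to -2.77 on 1 aorta Eln+/+ array, and the Ece1 valve Eln+/+ points of 1434177_at and 1455741_a_at lie above all aorta points.

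Cell type markers moved with the same contrast. In such bulk specimens, fewer cells of a type and less RNA per cell cannot be told apart. The mean of 18 endothelial genes was -0.38 and -0.33 in aorta Eln+/+ and Eln+/- and 0.16 and 0.37 in the valve groups, with aorta arrays from -0.93 to 0.18 and valve arrays from -0.15 to 0.56. Of the 18, 7 were called higher and 1 lower in valve over both genotypes, where 5.83% of all genes were called higher and 3.8% lower. The defining genes were not among the clear cases: Pecam1 read -0.45 ± 0.20 (adjusted p = 0.215) and Cdh5, the junctional cadherin of endothelium, 0.89 ± 0.32 (adjusted p = 0.107).

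Genes of the other cells that carry Ednrb were also higher in valve. The mean of 10 melanocyte genes ran from -0.71 to -0.36 on aorta arrays and from -0.02 to 0.86 on valve arrays, and 6 of the 10 were called higher over both genotypes. Dct, a pigment enzyme, differed by 2.83 ± 0.34 with no overlap between tissues, and Tyrp1, another, by 2.04 ± 0.36. The mean of 10 Schwann and neural genes ran from -0.996 to -0.06 in aorta and from 0.06 to 0.86 in valve, with 6 of 10 called higher. Of 15 smooth muscle genes, 10 were called lower and 1 higher, with Myh11, the smooth muscle myosin, at -1.20 ± 0.22. All 19 heart muscle genes were called higher in valve. Of 11 fibroblast genes 5 were called higher and 1 lower. Macrophages had 2 called higher and 0 lower of 11, yet 10 of the 11 estimates were above 0. Their median was 0.605, beside 0.607 for the endothelial list. The counts of calls were lower still for thymocytes and T cells (0 and 1 of 12), adipocytes (0 and 1 of 8) and airway epithelium (0 and 1 of 9). All 12 thymocyte and T cell estimates (median -0.31) and all 8 adipocyte estimates (median -1.07) were nevertheless below 0. The airway epithelium estimates were above 0 for 6 genes and below 0 for 3.

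**Figure D3:**
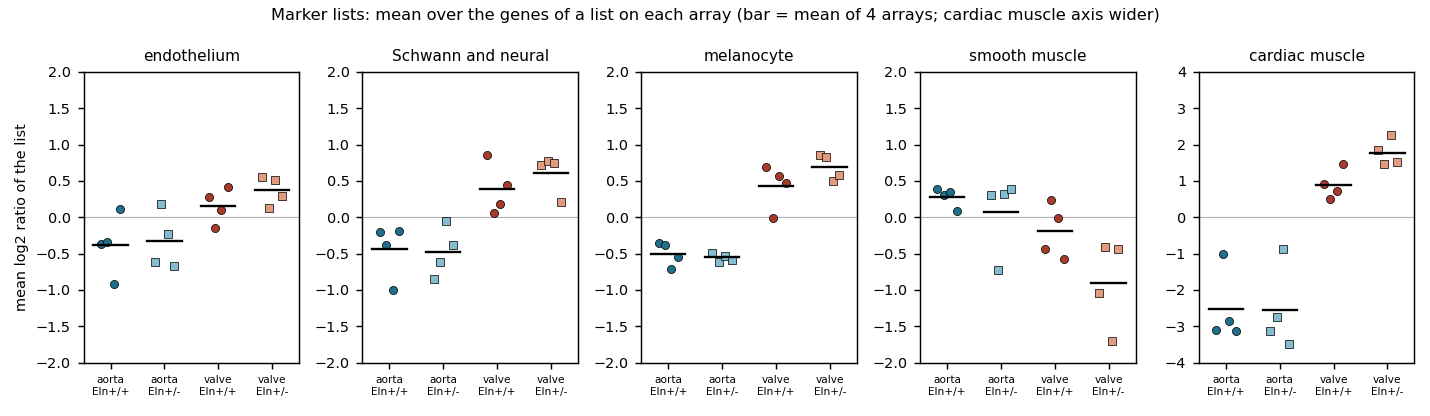
Mean log2 ratio of a marker list (y axis) on each of the 16 arrays by tissue and genotype (x axis) for endothelium, Schwann and neural cells, melanocytes, smooth muscle and heart muscle; points are arrays and bars the means of 4. Melanocyte and Schwann and neural means do not overlap between tissues, endothelial means overlap between -0.15 and 0.18, and smooth muscle means are lowest in valve Eln+/-.

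With the endothelial mean as a covariate, the difference over both genotypes was 0.55 for Ednrb on 1423594_a_at (adjusted p = 0.540), 0.14 on 1426314_at (adjusted p = 0.904) and -0.11 on 1437347_at (adjusted p = 0.931). For Ece1 it was 0.50 on 1434177_at (adjusted p = 0.262) and 0.43 on 1455741_a_at (adjusted p = 0.263), so these estimates kept their sign and lost the call. On 1441423_at, not called before, it was 0.67, above the 0.58 without the covariate (adjusted p = 0.308). For Edn1 it was -0.60 (adjusted p = 0.193), larger than without the covariate. With this covariate 531 of all probe sets were called in place of 3620. The means of the melanocyte list and of the Schwann and neural list did not overlap between tissues, so tissue and those means cannot be told apart.

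By the root mean square difference over the 16 arrays, the genes nearest to the leading Ednrb probe set, 1437347_at, were Cdh5 (0.410), Gimap6 (0.413), Lpl (0.428) and Scn7a (0.462), against a median of 1.07 over all genes and an SD of 0.990 for Ednrb itself. Both Ednrb and Cdh5 were lowest on aorta Eln+/+ array 3, at -2.77 and -2.04. Nearest to Ece1 (1441423_at) were Smim3 (0.273), Bcl10 (0.291), Pigg (0.299) and Lncpint (0.306), with a median of 0.605. Nearest to Edn1 were Acadsb (0.211), Dnajc8 (0.213), Ykt6 (0.215) and 4930473A02Rik (0.218), with a median of 0.496. For Edn2 the nearest was Atp4b (0.126) and for Edn3 Gpr84 (0.151), both quiet probe sets for which a small difference says little.

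The genes around the pathway were taken from 6 lists of 90 genes, of which 83 had a probe set. Over both genotypes 11 were called higher and 8 lower in valve, where 5.83% and 3.8% of all genes were called by their most variable probe set. In Eln+/+ 1 was called higher and 0 lower (1.19% and 0.126% of all genes), and in Eln+/- 3 and 8 (4.41% and 2.65%). The counts of each list below are to be read beside these same shares of all genes. Between genotypes 0 of the 83 were called in either tissue, with a smallest adjusted p of 0.885 in aorta and 0.368 in valve. The aorta value was shared by Pcsk5 (1.06 ± 0.41), Dlx5 (1.29 ± 0.53), Arrb1 (0.36 ± 0.16), Grk5 and Rock1. The genes with the smallest p in the other lists were Zeb2 (0.56 ± 0.31), Smad3 (-0.33 ± 0.24) and Nppa (0.89 ± 0.73) in aorta. In valve, the gene with the smallest p in each list was Nppb (1.49 ± 0.35, adjusted p = 0.368), Plcb1 (-0.98 ± 0.27, adjusted p = 0.395), Ecel1 (0.49 ± 0.17), Hey2 (-0.60 ± 0.21), Ret (-0.76 ± 0.42) and Gsc (0.16 ± 0.14).

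Among 10 genes of precursor processing and peptide breakdown, only Pcsk5, a furin-type convertase, was called, at -1.20 ± 0.29 over both genotypes and -1.78 ± 0.41 in Eln+/-. Its group means were 0.31 and 1.37 in aorta Eln+/+ and Eln+/- and -0.31 and -0.41 in the valve groups. Ece2 and Ecel1, relatives of Ece1, were not called. The list median was -0.12, beside -0.03 over all genes.

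Of 29 measured G proteins and effectors, 1 was called higher and 2 lower over both genotypes, where 5.83% and 3.8% of all genes were. These counts are close to those shares. Rgs4, which switches off the G protein that the receptors use, differed by -1.29 ± 0.20 and Plcb3, a phospholipase C, by -0.59 ± 0.16. Arrb1, an arrestin that ends receptor signalling, differed by 0.48 ± 0.11. In Eln+/- Rgs4 (-1.68 ± 0.29) and Plcb1 (-0.99 ± 0.27) were called.

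Of 13 regulators of Edn1 transcription, Gata2, an endothelial activator, was called higher (0.63 ± 0.15) and Hey2, a Notch effector, lower (-0.84 ± 0.15). Hey2 was also called in Eln+/- (-1.11 ± 0.21). The list median was 0.12.

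Of 10 measured genes that act with Ednrb in neural crest, 4 were called higher in valve over both genotypes and 0 lower, and all 10 estimates were above 0 with a median of 0.71. Sox10, the neural crest regulator, differed by 1.26 ± 0.25, Gfra1, a GDNF receptor, by 1.13 ± 0.30, Kitl, the ligand of Kit, by 0.90 ± 0.21, and Zeb2 by 0.79 ± 0.22. In Eln+/- Sox10 was the only one called (1.67 ± 0.35), and in Eln+/+ none was, with the smallest adjusted p for Gfra1 (1.43 ± 0.42, adjusted p = 0.153). Sox10 and Mitf are also melanocyte markers, and Sox10 a Schwann marker, so this list is not separate from those. Of 9 genes that depend on Edn1 and Ednra, Hand2 (0.92 ± 0.20) and Msx1 (0.77 ± 0.19) were called higher and Dlx5 (-1.61 ± 0.37) lower. Dlx5 was also called in Eln+/- (-2.27 ± 0.53).

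Of 12 genes of the nitric oxide, prostacyclin and natriuretic arm, which opposes endothelin, 3 were called higher and 3 lower. Nppa and Nppb, the natriuretic peptides of heart muscle, were higher by 6.73 ± 0.52 and 1.56 ± 0.25, and both also stand in the heart muscle list. Ptgir, the prostacyclin receptor, was higher by 0.67 ± 0.18. Called lower were Npr1, a natriuretic peptide receptor, at -0.96 ± 0.16, Gucy1b1, a guanylate cyclase subunit, at -0.81 ± 0.17 and Pde5a, which breaks down cyclic GMP, at -1.13 ± 0.30. Those 3 were also called lower in Eln+/-, where Nppa and Nppb were called higher, and in Eln+/+ only Nppa was called (6.79 ± 0.73).

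**Figure D4:**
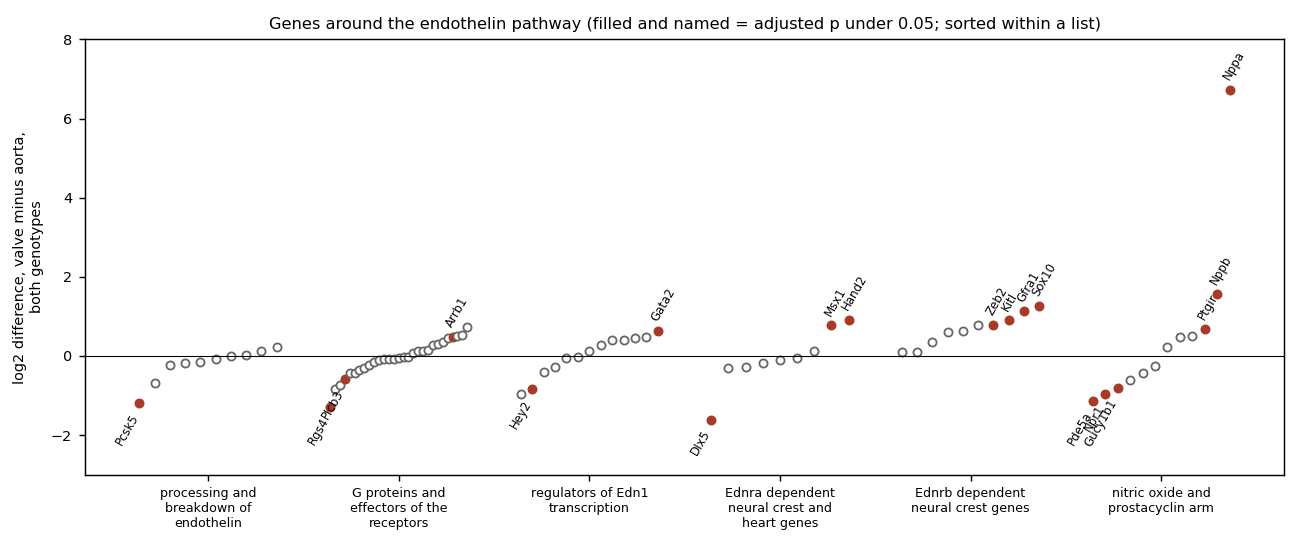
Valve minus aorta difference over both genotypes (log2, y axis) for the 83 measured genes of 6 lists around the pathway (x axis), sorted within each list; filled named points passed an adjusted p of 0.05. The 10 neural crest genes tied to Ednrb all lie above 0, Nppa stands at 6.73, and most other points lie near 0.

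For comparison, 23 measured genes of other vasoactive peptide systems had 7 called higher and 2 lower in valve over both genotypes. Of all genes, 5.83% were called higher and 3.8% lower there, 1.19% and 0.126% in Eln+/+, and 4.41% and 2.65% in Eln+/-. Nts, the neurotensin precursor, differed by 1.66 ± 0.20. Among receptors, Aplnr, the apelin receptor, differed by 1.83 ± 0.40, and Uts2r, the urotensin receptor, by 1.38 ± 0.28. Calcrl, the adrenomedullin receptor, differed by 1.20 ± 0.23 and its partner Ramp2 by 1.26 ± 0.23. Ace, the converting enzyme of angiotensin, differed by -0.62 ± 0.13, opposite in sign to Ece1, a difference between the genes that was not itself tested. In Eln+/+ 3 were called, Nts (1.61 ± 0.28), Calcrl (1.87 ± 0.32) and Uts2r (1.77 ± 0.40). In Eln+/- 4 were called higher, among them Aplnr (2.69 ± 0.56), Nts (1.70 ± 0.28) and Ramp2 (1.35 ± 0.33), and Ace was called lower (-0.88 ± 0.18). Between genotypes 0 of the 23 were called, beside 0% of all probe sets in each tissue. Those with the smallest p were Atp6ap2 in aorta (0.57 ± 0.17, adjusted p = 0.867) and Agt in valve (0.68 ± 0.17, adjusted p = 0.368).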

How the data were processed

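RNA of 16 specimens was measured on Affymetrix mouse whole-genome expression arrays. RMA is named in the submitters' processing notes, and the genome build is not given in the sources used here. What the authors deposited reads, for most probe sets, as a linear ratio of the signal to the probe set's median on the 16 arrays. This was read from the values: all 12 members and 39827 of the 45101 probe sets have a median of 1. The other 5274 have a median below 1, and how they were scaled is not known. The values carry no signal level, so no filter on dim probe sets was possible, and the number of arrays limits the precision.

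Ratios were put on the log2 scale without a pseudocount. The 64 control probe sets were left out. A limma model of 4 group means was fitted to the other 45037 (lmFit and eBayes of limma 3.58.1, with statmod 1.5.0, under R 4.3.3, and 12 residual degrees of freedom), with two-sided tests and Benjamini-Hochberg adjustment over all of them. The fit was tested on simulated data. Comparisons were genotype within tissue, valve minus aorta within each genotype and over both, and the interaction. Of the tested probe sets 34945 have 1 gene, 932 several and 9160 none; in lists, each of the 18193 genes is shown by its most variable probe set.

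The members and the 17 gene lists were chosen with earlier results of these data known, and called genes or, with none, the gene with the smallest p are named per list (Eln and the members always, and the 4 genes nearest each member). For lists, 229 of 243 names had a probe set, and list genes are counted by the call of that probe set. No 2 arrays held the same values. Alternatives covered scaling, a floor, filters, array weights, blocks, covariates and leaving out arrays.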

Additional observations from a re-analysis of the deposited data

Results flagged for a closer look

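Of 48 groups of 4 arrays, 3 held an array whose gap to the others exceeded the 95% critical value of Dixon's test. Chance gives about 1 in 20 groups. Edn1 on aorta Eln+/- array 2 was 0.72, where the other 3 arrays lay between 0.04 and 0.13. This array also had the highest thymocyte and T cell and macrophage list means. Among the aorta arrays it had the highest endothelial mean (0.18) and the lowest smooth muscle mean (-0.72, against 0.09 to 0.39). Its adipocyte mean was 2.23, exceeded only by 2.94 on aorta Eln+/+ array 4. The part of these in the value was not tested. On Edn3 1441923_s_at, aorta Eln+/- array 3 was -0.46, and the nearest array was -0.05. On Edn3 1441924_x_at, valve Eln+/+ array 4 was 0.0542 in a group that otherwise lay between -0.05 and -0.03, a gap within a very narrow range.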

How the results depend on the processing

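Of 2064 member values under alternatives, 2023 kept their side of the threshold, 30 lost the call and 11 gained it. The sign changed in 95, of which 0 were called values, and in 23 of the uncalled ones the change also exceeded 1 SD of the arrays within groups. Quantile normalization gave 692 calls between tissues in Eln+/+ in place of 426. Leaving out probe sets with a median below 1, or array weights, gave 1 call between genotypes in valve in place of 0, and array weights gave 5 member calls over both genotypes in place of 3, as Ednrb 1426314_at and 1437347_at passed (adjusted p = 0.0328 and 0.0146). Ednrb 1437347_at also passed with quantile normalization (adjusted p = 0.0269). Fitting the compared groups alone gave 1602 tissue calls in Eln+/- in place of 2615.

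Replicate numbers gave no sign of pairing: 0 of 8 pairs of aorta and valve deviations correlated above 0.1 (-0.04 to 0.05), and 0 of 8 pairs across genotypes did. Low correlations cannot show that arrays of the same number come from different mice. In Eln+/+, Xist was high on aorta array 4 but not valve array 4, and on valve array 2 but not aorta array 2. Those numbers therefore do not join arrays of the same mouse. With the replicate block there was 1 member call in Eln+/+ in place of 2, as Ece1 1455741_a_at had adjusted p = 0.0508, and Ece1 1441423_at passed over both genotypes (adjusted p = 0.0268). It changed no other member call.

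Covariates and the pair of arrays below were chosen after seeing the data. Without aorta Eln+/- arrays 2 and 4 there were 1578 tissue calls in Eln+/- and 5 member calls over both genotypes. Covariates left 71, 412 and 531 tissue calls in Eln+/+, in Eln+/- and over both (endothelium), 0, 1 and 0 (melanocyte) and 3, 0 and 3 (Schwann and neural), with 0 member calls in Eln+/+ and 0 over both in each.

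Leaving out 1 array gave 0 to 1 genotype calls in aorta and 0 to 11 in valve. It gave 173 to 553 tissue calls in Eln+/+ (0 to 2 members), 1366 to 3457 in Eln+/- and 2704 to 4750 over both (2 to 5 members). The cause of these changes was not tested. Ratios without signal limit what can be said of quiet probe sets such as those of Edn2 and Edn3.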
